A study of Rattus norvegicus with 6 samples.

Results

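The vascular endothelial growth factor (VEGF) ligands Vegfa, Vegfb, Vegfd and Pgf and the blood vessel receptors Flt1 and Kdr were examined in liver endothelial cells of control and cirrhotic rats. Members were the probe sets whose only gene symbol in the platform annotation is 1 of these 6 genes, with every probe set of a gene and dim ones included. These are 6 of 10411 genes named on the array, with 10 of its 15866 probe sets, 6 for ligands and 4 for receptors. RNA was measured on 6 Affymetrix Rat Expression 230A arrays, 3 per group. The cirrhotic group came from adult male Wistar rats taken through a protocol that induces cirrhosis, and the control group from Wistar rats without it. How cirrhosis was induced is not given in the sources used here. In both groups the liver was perfused with collagenase, and endothelial cells were enriched by density centrifugation and caught on antibody-coated magnetic beads whose target is not given. The labels do not say whether the arrays held RNA of separate rats, so p-values measure the spread between arrays, which may be partly technical, and the number of arrays limits the precision.

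VEGF ligands are secreted growth factors that act on tyrosine kinase receptors of endothelial cells. Vegfa binds both Flt1 (VEGF receptor 1) and Kdr (VEGF receptor 2), whereas Vegfb and Pgf (placental growth factor) bind Flt1 and Vegfd binds the lymphatic receptor Flt4. Kdr carries most of the signal for growth, survival and permeability, and Flt1 binds Vegfa tightly, signals weakly and is also made as a soluble form that traps ligand. In the liver, Vegfa is made mainly by parenchymal and perivascular cells and helps keep the sinusoidal endothelium fenestrated.

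Vegfa and Vegfd, of the ligands, were higher in cells from cirrhotic livers, with mean signals 3.39-fold and 5.23-fold those of the controls. Both receptors were lower, Flt1 at 31.3% and Kdr at 56.6% of the control mean on the brightest probe set of each gene. Vegfb did not pass the test, and both Pgf probe sets were too dim to be tested. Of the 10 member probe sets, 7 were bright enough for the test, and of these 2 were higher, 4 were lower and 1 passed in neither direction. Of the 2 higher, Vegfd was tested only because its cirrhotic arrays are bright, so the count depends on the filter and is only a description. In limma's test with Benjamini-Hochberg adjustment over 9519 probe sets, 12.3% of all tested probe sets were called higher and 13.2% lower at an adjusted p under 0.05. The control and cirrhotic arrays did not overlap for 9 of the 10 member probe sets, against 35.9% of all 15866 probe sets. In such bulk samples, fewer cells of a type and less RNA per cell cannot be told apart.

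**Figure D1:**
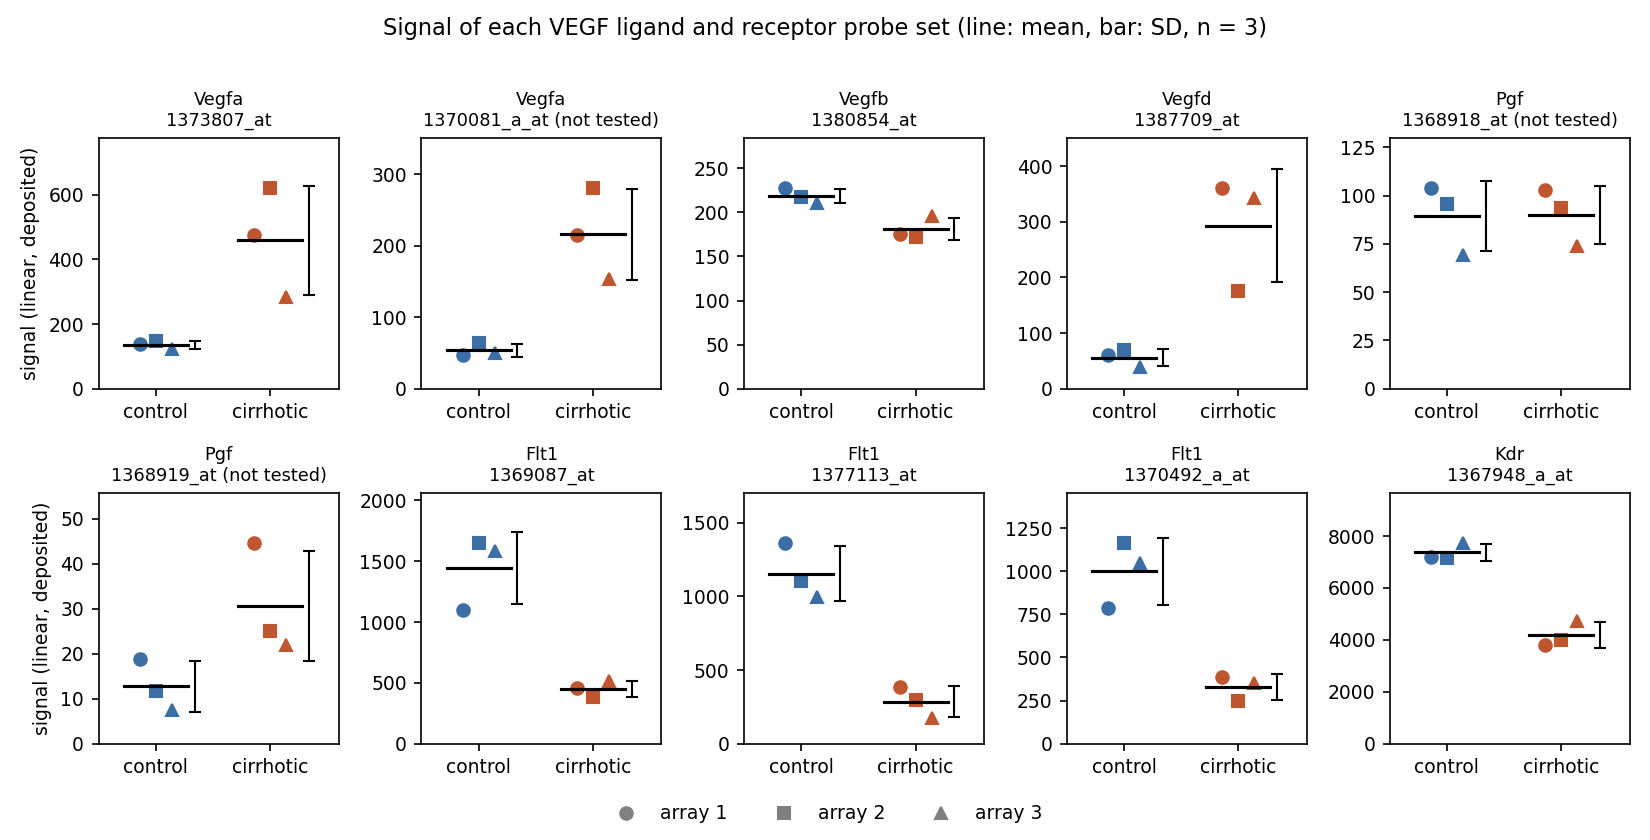
Deposited signal (linear scale, starting at 0) of each of the 10 probe sets on the 3 control and 3 cirrhotic arrays, with the mean as a line and the SD as a bar (n = 3) and the marker shape giving the array number. Vegfa and Vegfd lie higher on all cirrhotic arrays, and every Flt1 and Kdr array of the cirrhotic group lies under every control array.

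Vegfa is the main ligand of blood vessel growth, and Vegfd is a ligand of lymphatic growth. The stretches just before their transcription start are shown because these are the members that were higher in cirrhotic cells. Both are 250 bases long, read 5′ to 3′ on the gene's strand, and come from RefSeq annotation of the rat build GRCr8, in which all 6 members were matched by symbol. Vegfa lies at chr9:22452604-22452853 on the plus strand and Vegfd at chrX:33739893-33740142 on the minus strand. The table held 2 starts for Vegfa, of which the one at the start of the gene was used. Capitals mark GGAA or its reverse complement TTCC, the core of binding sites of ETS transcription factors, a family active in endothelium.
Vegfa: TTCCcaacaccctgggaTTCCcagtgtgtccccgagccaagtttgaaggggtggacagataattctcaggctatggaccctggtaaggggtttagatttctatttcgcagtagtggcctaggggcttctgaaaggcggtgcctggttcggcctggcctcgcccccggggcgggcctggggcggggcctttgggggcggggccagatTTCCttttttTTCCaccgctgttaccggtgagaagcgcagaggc
Vegfd: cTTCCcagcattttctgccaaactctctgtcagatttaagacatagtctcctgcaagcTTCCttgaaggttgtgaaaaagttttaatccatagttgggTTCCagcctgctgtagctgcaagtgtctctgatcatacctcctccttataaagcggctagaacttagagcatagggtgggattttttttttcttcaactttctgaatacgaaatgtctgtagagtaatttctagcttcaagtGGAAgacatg
Each window held 4 such matches. The matches are letters found in the window and are not shown to be bound. The same motif occurred at least once in 93.2% of 33469 rat windows of this length, with a median of 3. The core of hypoxia response elements, searched as ACGTG or GCGTG on both strands, had 0 matches in both windows and at least 1 match in 36.7% of all windows. Only these 250 bases were searched, so an element farther from the start would be missed.

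The brighter Vegfa probe set, 1373807_at, read 137.1, 147.1 and 121.7 on control arrays 1, 2 and 3 and 474.1, 619.5 and 284.0 on cirrhotic arrays 1, 2 and 3. The groups did not overlap, and the cirrhotic arrays spread far more widely than the controls, with cirrhotic array 3 the lowest of them. The means were 135.3 ± 12.8 and 459.2 ± 168 (SD, n = 3 each). The difference was 1.59 on the log2(signal + 16) scale (SE 0.26, 95% interval 0.98 to 2.19, limma with Benjamini-Hochberg adjustment, adjusted p = 0.0046), and 2.40% of all tested probe sets had a larger one. The difference was 1.89 (adjusted p = 0.000682) when cirrhotic array 3 was left out and 1.345 (adjusted p = 0.00835) without cirrhotic array 2. Among the fits with any array left out, the largest adjusted p was 0.0262, without cirrhotic array 1.

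The other Vegfa probe set, 1370081_a_at, read 47.1, 64.4 and 50.5 on the control arrays and 215.8, 280.6 and 153.1 on the cirrhotic arrays. It was under the brightness filter and therefore not tested, but its groups did not overlap either, and the cirrhotic arrays stood in the same order as on the brighter probe set. Its log2 difference was 1.70, or 0.91 with a pseudocount of 126. In a limma fit without the filter its Benjamini-Hochberg adjusted p was 0.00523, where 8.06% of 15866 probe sets were called higher. On 1 control array it did not exceed the brightest of 27 bacterial control probe sets, which detect no rat transcript.

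Cirrhotic array 3 also stood apart for markers of other cells. It had the lowest signal of the cirrhotic arrays for 8 of 8 tested bile duct cell markers, for 12 of 12 of macrophages and for 9 of 9 of T and NK cells, and the highest for 20 of 20 hepatocyte markers. The summed signal of the bile duct markers was 10590, 11560 and 4988 on cirrhotic arrays 1, 2 and 3, against 778.6 to 1556 on the controls. Vegfa had the same order as the summed bile duct markers over the cirrhotic arrays, highest on array 2 and lowest on array 3. Not every bile duct marker had it, as Krt8 was highest on array 1 (3392.7, 3202.6 and 1768.5). The order was not particular to bile duct cells. Summed T and NK cell markers (5394, 6478 and 3380), mast cell markers (3540, 4290 and 1227) and VEGF-induced endothelial genes (34680, 40670 and 29790) had it too. Such markers were not the only genes low on cirrhotic array 3. It was lowest for 16 of 20 tested VEGF-induced endothelial genes (highest for 3) and for 16 of 26 of VEGF receptor signal transduction (highest for 5). For hypoxia genes it was lowest for 10 of 19 and highest for 4. The part of other cells in the Vegfa signal was not tested.

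Vegfb, a ligand of Flt1 with a role in the heart and in tissue fatty acid uptake, had 1 probe set, 1380854_at. Its signal was 227.2, 217 and 211 on the control arrays and 175.4, 171.7 and 195.5 on the cirrhotic arrays. Every cirrhotic array lay under every control array, yet the gap was small. The means were 218.4 ± 8.19 and 180.9 ± 12.8 (SD, n = 3 each), and the log2 difference was -0.25 (SE 0.14, limma with Benjamini-Hochberg adjustment, adjusted p = 0.205). The 95% interval of -0.57 to 0.06 includes no difference and leaves no room for a rise of the size seen for Vegfa.

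Vegfd, which binds Flt4 and drives growth of lymphatic vessels, had 1 probe set, 1387709_at. It read 60.2, 69 and 39 on the control arrays and 360.3, 176.5 and 343.2 on the cirrhotic arrays. The groups did not overlap, and cirrhotic array 2 was well under the other 2 cirrhotic arrays. The means were 56.1 ± 15.4 and 293 ± 102 (SD, n = 3 each), and the log2 difference was 2.06 (SE 0.30, 95% interval 1.37 to 2.76, limma with Benjamini-Hochberg adjustment, adjusted p = 0.00296). A larger difference was found in 1.11% of tested probe sets. All control signals lay under the filter's threshold, a signal of about 127, so the probe set was tested only because of its cirrhotic arrays and could not have passed without a difference. In a limma fit without the filter its Benjamini-Hochberg adjusted p was 0.0058, where 8.06% of 15866 probe sets were called higher. With a pseudocount of 126 in place of 16 the difference was 1.18.

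The summed signal of 21 stellate cell and myofibroblast markers was 30270, 18200 and 24020 on cirrhotic arrays 1, 2 and 3, against 3571 to 5674 on the controls. Cirrhotic array 2 was thus the lowest of its group for these markers as well as for Vegfd. It was also the lowest for the summed hepatocyte markers, at 74270, 54670 and 112500 on cirrhotic arrays 1, 2 and 3. Not all stellate cell and myofibroblast markers had this order, as 3 of 15 tested were lowest on cirrhotic array 3. Further tested markers were lowest on cirrhotic array 1, among them Tpm1 (1439.2, 1651.8 and 1490 on cirrhotic arrays 1, 2 and 3). The 3 genes with the pattern nearest to Vegfd over the 6 arrays were Dcn (decorin, a proteoglycan of the matrix and itself among those markers), Clec11a and Ptn (pleiotrophin, a growth factor). Their root mean square distances from Vegfd in log2 units centred per gene were 0.109, 0.122 and 0.166. The part of stellate cells in the Vegfd signal was not tested.

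Pgf, a ligand of Flt1 found in pathological vessel growth, had 2 probe sets, both too dim to be tested. The first, 1368918_at, read 103.8, 95.5 and 69.3 on the control arrays and 102.9, 93.5 and 73.7 on the cirrhotic arrays. It was the 1 member whose groups overlapped, and its log2 difference was 0.01. The second, 1368919_at, read 18.9, 11.7 and 7.6 on the control arrays and 44.6, 25.1 and 22.0 on the cirrhotic arrays. These cirrhotic signals were all higher. The log2 difference was 0.68 but depended on the pseudocount, with 1.22 at a pseudocount of 1 and 0.17 at 126, and all 3 control arrays and 1 cirrhotic array were within the range of the bacterial control probe sets. Without the brightness filter, limma with Benjamini-Hochberg adjustment gave adjusted p = 0.981 for the first and 0.0949 for the second, so no change of Pgf could be shown at these signals.

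Both receptors were lower in cirrhotic cells, and the stretches before their starts are printed for that reason. Flt1 lies at chr12:12333180-12333429 and Kdr at chr14:32571813-32572062 of GRCr8 (RefSeq), both on the plus strand, with the same length, direction and capitals as for the ligands.
Flt1: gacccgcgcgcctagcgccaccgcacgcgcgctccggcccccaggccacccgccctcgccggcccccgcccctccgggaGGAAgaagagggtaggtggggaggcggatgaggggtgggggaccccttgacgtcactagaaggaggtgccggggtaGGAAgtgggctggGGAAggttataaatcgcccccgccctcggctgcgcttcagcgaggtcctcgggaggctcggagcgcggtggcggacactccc
Kdr: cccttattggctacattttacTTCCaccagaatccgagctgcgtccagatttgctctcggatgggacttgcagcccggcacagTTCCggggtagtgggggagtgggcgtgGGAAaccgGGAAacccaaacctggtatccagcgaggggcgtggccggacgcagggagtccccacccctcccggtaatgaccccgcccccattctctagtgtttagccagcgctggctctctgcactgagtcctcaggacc
Flt1 had 3 and Kdr 4 matches to GGAA or TTCC. At least 3 were found in 55.5% of all windows, so this number does not set the receptors apart. ACGTG or GCGTG, or its reverse complement, matched 1 time in the Flt1 window and 2 times in the Kdr window.

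Flt1 had 3 probe sets, all lower in cirrhotic cells. The brightest, 1369087_at, read 1101.2, 1647.7 and 1583.9 on the control arrays and 460.8, 382.8 and 512.7 on the cirrhotic arrays. The groups lay far apart. The means were 1444 ± 299 and 452.1 ± 65.4 (SD, n = 3 each). Flt1 fell by 1.63 on the log2 scale here (SE 0.19, 95% interval -2.07 to -1.19, limma with Benjamini-Hochberg adjustment, adjusted p = 0.00131), and 0.714% of tested probe sets had a larger fall.

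The second Flt1 probe set, 1370492_a_at, read 785.3, 1162.8 and 1048.5 on the control arrays and 385.3, 246.3 and 354.7 on the cirrhotic arrays. It ranked the control arrays as the first did and fell by 1.56 (SE 0.21, limma with Benjamini-Hochberg adjustment, adjusted p = 0.00214). The third, 1377113_at, read 1361.4, 1103.6 and 998.9 on the control arrays and 384, 296.8 and 175.1 on the cirrhotic arrays. It fell by 2.01 (SE 0.27, limma with Benjamini-Hochberg adjustment, adjusted p = 0.00196), and it ranked the arrays differently. Control array 1 was the highest control array here and the lowest on the other 2 Flt1 probe sets. Cirrhotic array 3 was the lowest array here and the highest of the cirrhotic arrays on 1369087_at. Which transcripts each probe set reads, and so whether the full-length and soluble forms moved alike, was not analysed here.

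Kdr, the principal signalling receptor for Vegfa, had 1 probe set, 1367948_a_at. It read 7211.6, 7162.6 and 7723.8 on the control arrays and 3794.9, 3975.7 and 4743.1 on the cirrhotic arrays. The spread within each group was small and the groups were far apart. The means were 7366 ± 311 and 4171 ± 503 (SD, n = 3 each). Kdr fell by 0.82 on the log2 scale (SE 0.11, 95% interval -1.07 to -0.58, limma with Benjamini-Hochberg adjustment, adjusted p = 0.00177), and 6.24% of tested probe sets had a larger fall.

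**Figure D2:**
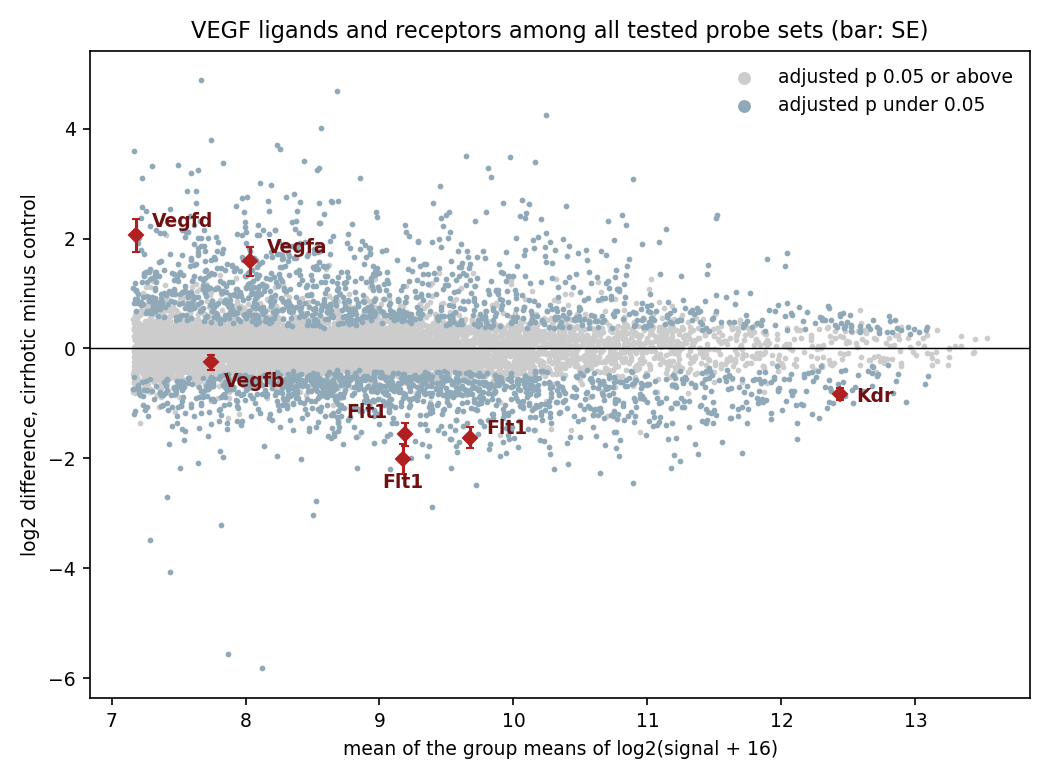
Log2 difference, cirrhotic minus control, against mean log2(signal + 16) for all 9519 tested probe sets, with the 7 tested member probe sets in red and their SE as bars. The 3 Flt1 probe sets lie at -1.56 to -2.01, Kdr at -0.82 among the brightest probe sets, and Vegfd at 2.06 at the dim end of the tested range.

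General endothelial markers were lower in the cirrhotic cells too. Of 18 tested pan-endothelial markers 15 fell and 1, the junction protein gene Cldn5, rose (2 without control array 1 or cirrhotic array 3), with a median log2 difference of -0.95 against -0.02 for all tested probe sets. The control mean of Cldn5, 109.3, was under the filter's threshold, so it was tested only through its cirrhotic arrays. The summed signal of the 18 markers was 51230 to 51500 on the control arrays and 28610 to 29230 on the cirrhotic arrays. All 8 tested sinusoidal endothelial markers fell as well, with a median of -1.20 and a summed signal over all 9 measured of 43850 to 48530 against 19020 to 22970. The members were therefore also expressed relative to the mean log2 signal of the 18 pan-endothelial markers on the same array, a mean that fell by 0.69. Two-sided exact permutation tests were run on 8 such measures, and with 3 arrays in each group no p under 0.1 can be reached, so none could pass 0.05.

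Relative to these markers, Flt1 fell by 0.94 with no overlap between the groups (exact permutation p = 0.1, 0.114 after Benjamini-Hochberg adjustment over the 8 measures). None of the 18 markers fell more than this Flt1 probe set, but the nearest, Sox17, differed by -1.59 (SE 0.32) against -1.63, and it fell more than the Flt1 probe set 1370492_a_at (-1.56). Kdr differed by -0.13 with overlapping groups (exact permutation p = 0.4, adjusted 0.4), and 11 of the 18 markers fell more than it did. The difference of Flt1 and Kdr on the same array fell by 0.81 without overlap (exact permutation p = 0.1, adjusted 0.114).

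The place of Kdr depended on the markers used. Relative to the 8 sinusoidal markers Kdr differed by 0.39 in the upward direction (exact permutation p = 0.1), and relative to the median of the 18 pan-endothelial markers by 0.11. Flt1 differed by -0.41 relative to the sinusoidal markers (exact permutation p = 0.2). Both of these references were chosen after the data had been seen. The change of Kdr was thus within the range of endothelial markers. That of Flt1 lay near its lower end on 1369087_at and 1370492_a_at. On 1377113_at, at -2.01, Flt1 fell more than every tested marker of both lists.

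All 4 ligands stood higher relative to the pan-endothelial markers, with no overlap between the groups. The differences were 2.28 for Vegfa, 2.75 for Vegfd, 0.44 for Vegfb and 0.70 for Pgf on its brighter probe set (exact permutation p = 0.1 each, adjusted 0.114). The own log2 difference of Vegfb was -0.25 and that of Pgf 0.01, so in these ligands the shift equals, in the main, the fall of the markers. Vegfa moved apart from Vegfb by 1.84 on the same array (exact permutation p = 0.1, adjusted 0.114).

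**Figure D3:**
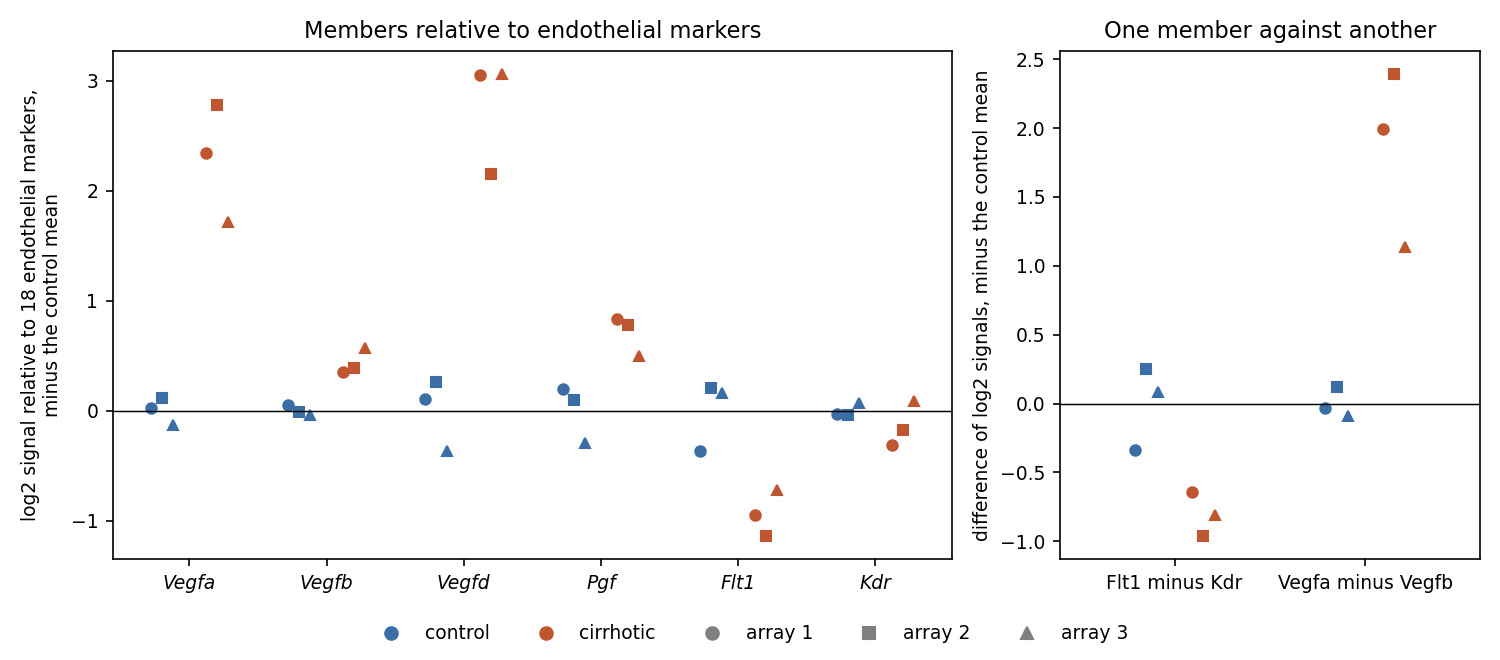
Left, log2 signal of each member (brightest probe set) minus the mean of 18 pan-endothelial markers on the same array, with the control mean set to 0. Right, the difference of 2 members on the same array, also minus the control mean. Each point is 1 array. The control and cirrhotic points of Kdr overlap, and those of the other members do not.

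Proteins that partner with, bind or restrain VEGF and its receptors mostly fell. Of 11 tested genes of this list 8 were lower and 2 higher, with a median log2 difference of -0.99, against -0.95 for the pan-endothelial markers. The count of higher genes was 1 when any array but cirrhotic array 3 was left out, which ended the call of Ccn2 (connective tissue growth factor). The 4 with the smallest p were Adamts1, a protease that binds and sequesters Vegfa, Ptprb, a phosphatase of endothelial junctions, Dab2, an adaptor in endocytosis, and Vegfc. Adamts1 fell from 4362 ± 150 to 1715 ± 93.6 (SD, n = 3 each), by 1.34 on the log2 scale (limma with Benjamini-Hochberg adjustment, adjusted p = 0.000442). Ptprb and Dab2 fell by 1.03 and 0.99. Vegfc, the sister ligand of Vegfd for Flt4, rose from 228.9 ± 78.9 to 910 ± 116, by 1.96 (limma with Benjamini-Hochberg adjustment, adjusted p = 0.00117).

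Other receptors of these ligands were measured as well. Flt4, the receptor of Vegfc and Vegfd, fell from 600.2 ± 220 to 237.6 ± 30.8, by 1.22 (SE 0.26, limma with Benjamini-Hochberg adjustment, adjusted p = 0.0121). Nrp1, a co-receptor that presents Vegfa to Kdr, fell from 4469 ± 600 to 2578 ± 539, by 0.80 (SE 0.17, limma with Benjamini-Hochberg adjustment, adjusted p = 0.012). A second Nrp1 probe set fell by 0.74 (limma with Benjamini-Hochberg adjustment, adjusted p = 0.00609). Nrp1 was singled out after its values had been seen, and Flt4 is named through the lymphatic list. The Flt4 call was lost without cirrhotic array 1 (adjusted p = 0.0519), and the call of the first Nrp1 probe set without control array 3 (0.0563) or cirrhotic array 1 (0.0511). Nrp2, a further co-receptor, was too dim to be tested, with overlapping groups (69.2 ± 19.7 and 58.8 ± 11.8) and a log2 difference of -0.18. Flt4 is 1 of 5 tested lymphatic endothelial markers, of which 3 rose. These were Mmrn1, by 3.64, Prox1, the lymphatic master regulator, by 1.47, and Pdpn (podoplanin), by 1.77. The control mean of Pdpn, 106.2, and all control signals of Mmrn1 were under the filter's threshold. Both were therefore tested only through their cirrhotic arrays.

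Genes that carry the signal inside the cell were mixed. Of 26 tested genes of VEGF receptor signal transduction 4 were higher and 8 lower, with a median of -0.13. Without cirrhotic array 3 there were 7 higher, and without control array 1 or control array 3 there were 5 lower. Ptgs2 (cyclooxygenase 2) rose from 105.9 ± 10.6 to 699.5 ± 220, by 2.50, and Pla2g4a, the phospholipase that frees arachidonic acid for it, by 1.66 (limma with Benjamini-Hochberg adjustment, adjusted p = 0.000719 and 0.00142). The kinase Src rose by 1.31 and the heat shock protein Hspb1 fell by 1.01 (adjusted p = 0.00137 and 0.00242). All control signals of Ptgs2 and Src were under the filter's threshold, so both were tested only through their cirrhotic arrays. The control mean of Pla2g4a, 125.8, was also under that threshold of about 127, so it too needed its cirrhotic arrays to be tested. Nos3, the endothelial nitric oxide synthase downstream of Kdr, fell by 0.70, a call lost without control array 3 (adjusted p = 0.0509).

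Genes that VEGF is known to induce in endothelial cells did not move one way. Of 20 tested, 5 rose, 5 fell and 10 passed in neither direction, with a median of -0.05. Esm1 (endocan), a product of sprouting tip cells, fell from 1258 ± 1040 to 111.1 ± 12.5, by 3.03 on the log2 scale, and Apln (apelin) went from 414.6 ± 156 to 81.4 ± 4.69, a difference of -2.09 (limma with Benjamini-Hochberg adjustment, adjusted p = 0.00368 and 0.00125). F3 (tissue factor), which starts coagulation, rose from 58.7 ± 19 to 281.9 ± 35, by 2.02 (limma with Benjamini-Hochberg adjustment, adjusted p = 0.000941). The transcription factor Egr1 fell by 0.65 (adjusted p = 0.00131). All F3 control signals, and all cirrhotic signals of Esm1 and Apln, lay under the filter's threshold, so these 3 genes were tested only through the group in which they are brighter.

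Vegfa is itself a target of hypoxia-inducible factors, and the hypoxia list was mixed as well. Of 19 tested genes 5 rose and 2 fell, with a median of 0.06. Egln3, an oxygen-sensing prolyl hydroxylase, rose by 1.79 and Ldha (lactate dehydrogenase A) by 0.68, while the glycolysis regulator Pfkfb3 fell by 1.59 (limma with Benjamini-Hochberg adjustment, adjusted p = 0.00199, 0.00644 and 0.000717). The control signals of Egln3, 49.1 to 83, were under the filter's threshold, so it too was tested only through its cirrhotic arrays. Epas1 (HIF-2 alpha), a factor prominent in endothelium, fell by 0.98 (adjusted p = 0.0025). Hif1a differed by 0.40 and did not pass (adjusted p = 0.117). The calls of Slc2a1 and Eno1, both higher, were lost when either control array 1, control array 3 or cirrhotic array 1 was left out, which left 3 higher. Without cirrhotic array 2 or cirrhotic array 3 there were 4 lower.

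The neighbouring angiopoietin and endoglin receptors were lower too, near the median of -0.95 of the pan-endothelial markers, which include Eng and Tie1. Eng (endoglin), Tie1 and Acvrl1 (ALK1) fell, with differences of -1.12, -0.91 and -1.26 (limma with Benjamini-Hochberg adjustment, adjusted p = 0.000624, 0.00101 and 0.00296). Angpt2, a ligand that loosens vessels for VEGF to act on, differed by -0.19 and did not pass (adjusted p = 0.676). These were the 4 tested genes of the list, and Angpt2 also stands in the list of genes that VEGF induces.

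**Figure D4:**
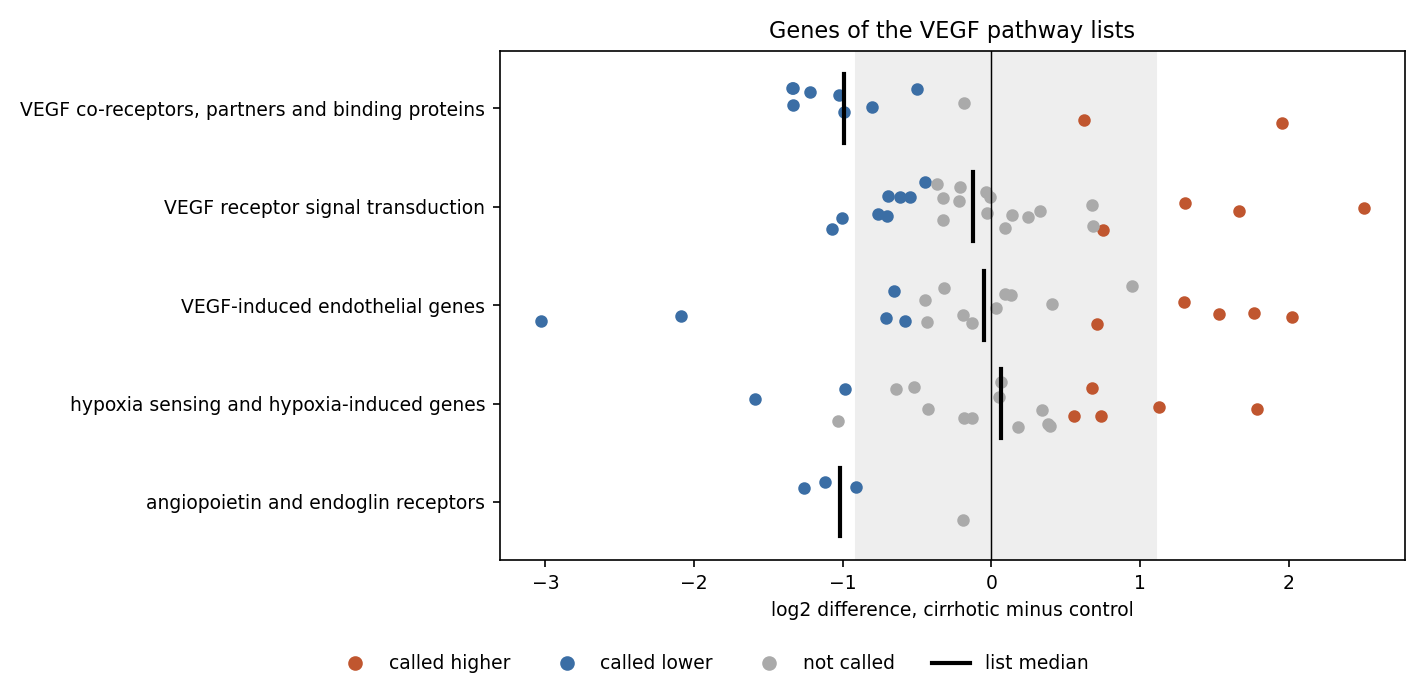
Log2 difference, cirrhotic minus control, of each tested gene in 5 VEGF pathway lists, 1 point per gene on its brightest probe set, coloured by its call, with a vertical bar at the list median. The grey band spans -0.91 to 1.11, the 5th to 95th percentile of all 9519 tested probe sets, and the medians of the first and last list lie at -0.99 and -1.02. The median of the pan-endothelial marker list, which is not drawn, was -0.95.

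The genes nearest to the other members in pattern over the 6 arrays were found by the same distance. For Flt1 they were Tmem9b (0.0638), Eml1 (0.13) and Adgrf5 (0.134), which fell by 1.68, 1.42 and 1.66. For Kdr they were Ocel1 (0.0467), Rab11a (0.0477) and the tetraspanin Tspan7 (0.0515), which fell by 0.77, 0.86 and 0.78. For Vegfa they were Fxyd5 (0.101), Rhof (0.125) and Tnfrsf14 (0.138), and for Vegfb Dolpp1 (0.0353), Depdc5 (0.0355) and Rabep1 (0.0371). Since most of this pattern is the step between the groups, a short distance says only that a gene stepped by a like amount.

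The preparations carried transcripts of other liver cells in both groups, and the lists differed in how these moved. Of measured markers, 11 of 21 for stellate cells and myofibroblasts, 6 of 9 for bile duct cells, 9 of 20 for hepatocytes, 5 of 11 for T and NK cells, 3 of 6 for mast cells and 2 of 13 for macrophages were called higher. Of these calls, 1, 2, 0, 2, 1 and 0 in the same order were genes with every control array under the filter's threshold of about 127. Such genes were tested only through their cirrhotic arrays. These counts are minimum counts, since called markers with 1 control array over the threshold could also have a control mean under it. Among them were Pdgfrb (102.6), Epcam (113.6), Cd2 (107) and Cpa3 (122.5), which likewise needed their cirrhotic arrays to be tested. Dim markers could not be called, and the median log2 differences over all measured markers were 1.29, 2.46, 0.99, 0.13, 1.18 and 0.18. Markers that were lower numbered 1 for mast cells, 1 for macrophages (Clec4f, with a log2 difference of -3.22 and all cirrhotic arrays under the threshold) and 0 for the other lists. The hepatocyte count was 5 without control array 2, 3 without control array 3 and 4 without cirrhotic array 1, and without control array 3 it was 3 for T and NK cells and 1 for macrophages. The summed signals of hepatocyte, macrophage and T and NK cell markers overlapped between the groups. Summed hepatocyte marker signals were 46700 to 64690 on control and 54670 to 112500 on cirrhotic arrays, and those of macrophages 5682 to 11750 and 7016 to 14760. T and NK cell markers summed to 3041 to 4140 and 3380 to 6478, and mast cell markers to 600.8 to 864.5 and 1227 to 4290. No marker signal was listed at 0. The part of these cells in the differences of the ligands and receptors was not tested.

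The arrays were comparable in scale. The mean signal without the lowest and highest 2% was 399.2 to 399.6 and the median 178 to 201.4. Pearson's correlation across tested probe sets was 0.912 to 0.967 within groups and 0.821 to 0.874 between them. In all, 1167 probe sets were higher and 1254 lower, or 925 and 1480 after median centring, which moved the median of all probe sets by -0.08.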

How the data were processed

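Each array has 1 deposited intensity value for a probe set, linear and already scaled by the authors. The software is not given in the sources used here, and the values were used unchanged. The members, gene lists and tests were chosen with earlier results of these data known. The titles give each array's group and number, and the control array without a number was called control 1, which is only a name.

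Signals were turned into log2(signal + 16), 16 being the 10th percentile of all values. A fold on this scale understates the change of dim genes. Tests left out 57 control probe sets and the dimmest 40% by mean over the 6 arrays (6347 probe sets). The group test was limma's (version 3.58.1, R 4.3.3; lmFit, eBayes with trend), two-sided, with Benjamini-Hochberg adjustment over 9519 probe sets and a threshold of 0.05. Detection calls and scanner files were not used here. Without them, signal over background limits dim genes, and the highest bacterial control probe set read 21.7 to 49.9. Symbols came from the platform annotation: 12783 probe sets had 1 symbol, 312 several and 2771 none.

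All member probe sets are named. From each pathway or marker list up to 4 genes with the smallest p are named, on the brightest probe set, with 3 nearest genes per tested member by root mean square difference. Marker lists are given mainly as counts. Genes named beyond this rule (Nrp1, Nrp2, Ccn2, Nos3, Hif1a, Slc2a1, Eno1, Sox17, Pdgfrb and Epcam) were chosen after their values were seen. Lists overlap in Nos3, Ptprb, Eng, Tie1, Flt4 and Angpt2. Alternatives were quantile normalization, median centring, other pseudocounts, filters and variance models, array weights, suffixed probe sets left out, array number as a block, each array left out, and other endothelial references. Tested on simulated data with the real means and spreads (10 simulations, 200 of 9519 probe sets changed), the fit recovered 16.4% of changes of 1.5-fold, 58.7% at 2-fold and 88.0% at 4-fold, and 5.79% of calls were false.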

Additional observations from a re-analysis of the deposited data

How the results depend on the processing

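The calls and directions of Kdr, the 3 Flt1 probe sets, the brighter Vegfa probe set and Vegfd held under every alternative in which they were tested, with adjusted p from limma (Benjamini-Hochberg) of at most 0.0138, 0.0141, 0.0262 and 0.027, and Vegfb did not pass under any (adjusted p 0.0801 to 0.743). The brightness threshold decides which ligands are tested. A pseudocount of 1 left 1 member called higher, because Vegfd fell under the filter, and a filter at 60% left 0. Leaving out probe sets with suffixes left 2 members called lower. Over all probe sets, array weights gave 3772 calls (1818 higher, 1954 lower). Leaving out single arrays gave 1341 to 2472 in all, 627 to 1256 higher and 694 to 1216 lower, with the fewest without control array 3 (1341) and cirrhotic array 1 (1366). Titles share only the numbers 2 and 3, and samples with the same number did not deviate together (correlations -0.00926 and -0.157). Control array 1, whose number is only a name, had a correlation of 0.0192 with cirrhotic array 1. A replicate block on the 4 arrays numbered 2 and 3 gave 908 calls (497 higher, 411 lower) and kept all member calls. Relative to endothelial markers, the pseudocount of 126 gave 1.77 for Vegfa, 1.83 for Vegfd and 1.29 for Vegfa minus Vegfb, and quantile normalization gave 0.34 for Vegfb. Sinusoidal markers as the reference gave 2.81 for Vegfa, 0.96 for Vegfb, 3.28 for Vegfd, 1.23 for Pgf, -0.41 for Flt1 and, reversed, 0.39 for Kdr. The median of the markers gave 0.69 for Vegfb, 0.95 for Pgf and, reversed, 0.11 for Kdr. Of 448 list counts under alternatives, 405 were within 1.5 times the main count. The cause of these shifts was not tested.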
